A study of Capra hircus with 12 samples.

Results

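Goat cells of the middle cartilage layer (MLC) were compared with cells of the superficial layer (SLC) of the temporomandibular joint (TMJ), the jaw joint, after both had been treated with the inflammatory cytokine IL-1β. The comparison takes the 3 libraries labelled MLC, IL-1β and the 3 labelled SLC, IL-1β, which are 6 of the 12 goat RNA-seq libraries analysed here, and it covers every gene of the tables. The other 6 libraries hold the same layers with IL-1β and LOXL2, a collagen crosslinking enzyme delivered by adenovirus, and they serve below as a second reading of the layer difference. By the study's methods, the cells came from condyles of female goats less than a year old, the SLC peeled off after collagenase and the deeper cartilage cut from the bone with a blade. They were frozen, passaged in DMEM with serum, and treated with IL-1β for an hour before RNA was taken. Neither IL-1β group carries the LOXL2 virus, and whether they carry an empty virus is not stated for the RNA libraries. The labels do not say whether replicates are separate cultures or animals, or whether both layers came from the same animals, so the p-values measure the spread between libraries, which may be technical. The layers were grown as separate cultures and deposited as separate tables, so layer, culture and table cannot be told apart. Cells without IL-1β were not analysed here, and no difference below can be called a difference in the response to IL-1β.

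The condyle of the TMJ is covered by a fibrous superficial layer, whose cells make type I collagen and the lubricant lubricin, and by a deeper cartilage layer, whose chondrocytes make type II collagen and aggrecan under the transcription factor SOX9. The jaw skeleton comes from neural crest of the first pharyngeal arch, which is known for lacking HOX gene expression and for a nested code of DLX genes. HOX genes pattern the trunk and limbs, and TBX4 and TBX5 are known for their roles in hindlimb and forelimb. IL-1β acts through its receptor IL1R1 and NF-κB to raise cytokines, prostaglandin enzymes and matrix proteases in joint cells.

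The SLC libraries held 18751323 to 22123593 counts (median 19728437) and the MLC libraries 14158607 to 15330697 (median 14976796), so the layers also differ in depth. The first principal component carried 82% of the variance and parted the layers, and the second (6.24%) set the second MLC library apart from the other MLC libraries. That library had the highest counts of several inflammatory genes and the lowest of several proliferation genes in its group, and values without it are given for several of these. Within a layer, library pairs differed by more than counting noise, with a chi-square per degree of freedom of 2.23 to 9.37. The labels were checked against defining markers. Markers of chondrocytes (SOX9, ACAN, COL2A1, COL9A1 and others) summed to 1319.6 to 1367 normalized counts in SLC and 8343 to 10297 in MLC. COL2A1 and COL9A1 were at 0 in every SLC library. SOX9, ACAN, HAPLN1 and COL11A2, counted in both layers, were higher in MLC, whereas MATN3 (22 counts in SLC and 18 in MLC), LECT1 (23 and 30) and UCMA (7 and 13) were too low to be tested. The summed markers proposed for superficial cells did not part the layers in the labelled direction, although THBS4 among them was lower in MLC. They summed to 1252 to 1411 in SLC and 1327 to 1405 in MLC, and TNMD was at 0 throughout. Most of both sums was ERG (mean 807 in SLC and 1014 in MLC), which is also on the endothelial list. Of the 4 tested members, ERG and PRG4 were higher in MLC, THBS4 was lower and CD55 did not pass. Fibroblast markers, led by type I and type III collagen, summed to 1263930.0 to 1294950.0 in SLC and 1284220.0 to 1310450.0 in MLC. Single members differed, with 3 of 8 higher in MLC (COL3A1, DCN and LUM) and 3 lower (COL1A2, THY1 and FAP).

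Markers of cell types that neither label names were also read. The defining leukocyte genes PTPRC and TYROBP were at 0 in all 6 libraries. The epithelial list summed to 135 to 180.4 in SLC and 698 to 813 in MLC, through KRT14, KRT19 and CLDN4, with KRT5 and KRT18 at 0 in both layers. The skeletal muscle list summed to 275 to 303 in SLC, most of it PAX7, and to 11.1 to 19.8 in MLC. MYOD1 and MYOG were at 0 in both. Smooth muscle and pericyte markers summed to 4115 to 4594 in SLC and 3141 to 3253 in MLC, with 5 of 7 tested lower in MLC. The next sums are given for SLC and then MLC. Adipocyte markers summed to 243 to 279 and 89.6 to 134. Endothelial markers, mostly ERG, summed to 801 to 948 and 1069 to 1136, with EMCN and ESAM at 0 in both. Schwann or neural markers summed to 1067 to 1248 and 1955 to 2089. Hypertrophic chondrocyte markers summed to 43.2 to 60.3 and 133 to 373. Most of the MLC sum was the protease gene MMP13 (77.5, 317 and 121). PANX3 was also higher in MLC, ALPL was lower, and COL10A1 and IHH were too low to be tested. Osteoblast or osteocyte markers summed to 22.5 to 36.2 and 44.2 to 74. The whole leukocyte list summed to 1382 to 1676 and 1710.2 to 2482, almost entirely CD14. The osteoclast list, 39892 to 53666 and 30315 to 41996, is almost entirely CTSK, which fibroblasts also make, and red blood cell genes stayed at 0 to 1.16. What part other cell types have in the differences below was not tested.

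The anatomical origin of both cultures rests on the labels alone. HOX genes, which jaw neural crest is known to lack, summed to 121 to 138 normalized counts in SLC and 1491 to 1686 in MLC, and a long noncoding RNA of chromosome X (LOC102169084) had 4132 to 5510 counts in the SLC libraries but 3 to 9 in the MLC libraries. Genes of jaw mesenchyme such as BARX1 were counted in both. Another site or animal of origin for one culture cannot be told apart from layer here, so each difference below is one between libraries so labelled. In such bulk samples, fewer cells of a type and less RNA per cell cannot be told apart.

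Of 28910 genes, 13965 had enough counts to be tested, and 6548 of them (46.9%) passed an adjusted p of 0.05 (edgeR, quasi-likelihood F test, Benjamini-Hochberg). Of these, 3379 (24.2% of those tested) were higher in MLC and 3169 (22.7%) lower. Differences are written as log2 of MLC over SLC throughout, so positive values are higher in MLC. The median over all tested genes was -0.01, and the median size among genes that passed was 0.49. A size of at least 2-fold (1 on the log2 scale) as well left 938 genes (6.72%) higher and 585 (4.19%) lower. Since so many of all genes passed, the counts for each gene list below are to be read against these shares. For any single gene, a two-sided exact permutation test of 3 against 3 libraries cannot go below p = 0.1. Genes with almost no counts in one layer passed the count filter through the other layer alone and could only come out higher there. Their adjusted p-values below add nothing to their counts. The plot of all tested genes shows wide differences on both sides, with the collagen gene COL2A1 and the patterning gene HOXA9 among the circled genes higher in MLC and ASIP, DLX6 and PAX7 among those lower.

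**Figure D1:**
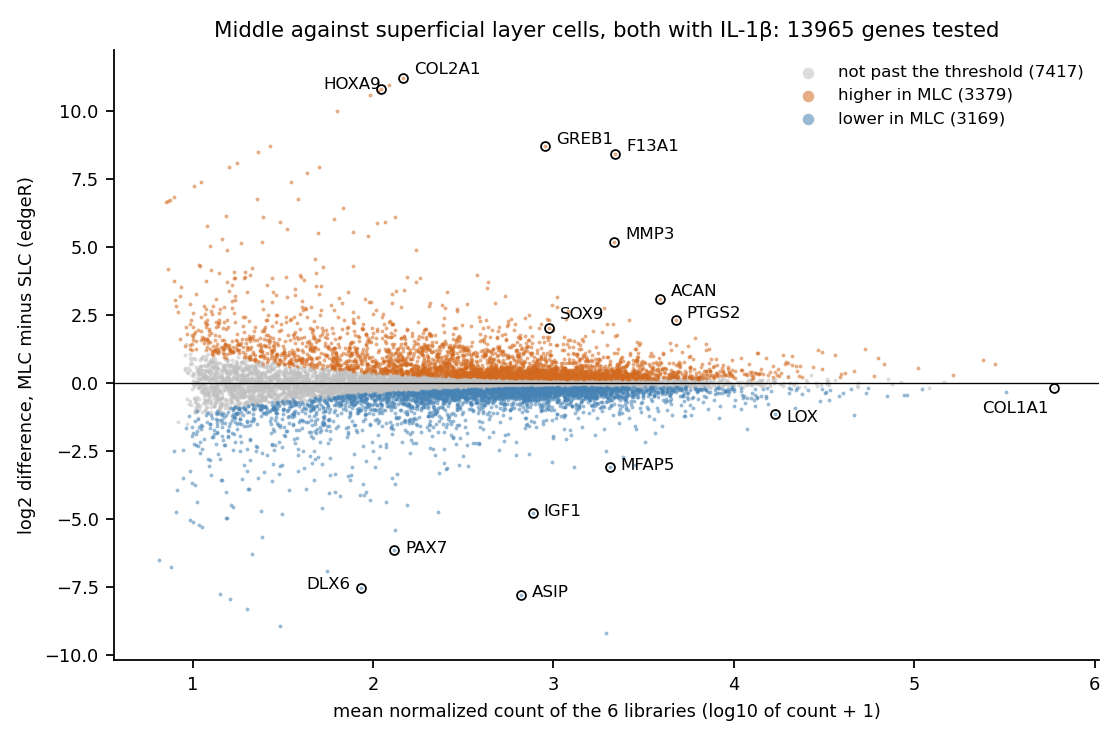
Each point is 1 of 13965 tested genes, with the mean normalized count of the 6 IL-1β libraries across (log10 of count + 1) and the log2 difference of MLC minus SLC up. Orange points (3379) were higher and blue points (3169) lower in MLC past an adjusted p of 0.05, grey points did not pass, and circles mark named genes. The fitted difference of a gene at 0 in one layer, such as COL2A1, is not a bound.

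Cartilage matrix genes were mostly higher in MLC, and the collagen genes COL2A1 and COL9A1 were counted in MLC alone. Of 18 tested, 13 were higher and 1 lower, with a median log2 difference of 1.05 (all genes, -0.01). COL2A1 and COL9A1 passed the count filter through MLC alone. COL2A1, the type II collagen chain (chromosome 5, 31857800 to 31888050, ARS1.2, protein-coding), had 0 counts in each SLC library and normalized counts of 363, 181 and 328 in the MLC libraries. Against a floor of 3 counts over the SLC group, its level was at least 345-fold higher in MLC, with adjusted p = 2.52e-08 in edgeR. COL9A1, a chain of the type IX collagen that decorates type II fibrils (chromosome 14, 90925807 to 91014323), was likewise at 0 in SLC and had 200.4, 267 and 267 in MLC, at least 290.0-fold higher. The second MLC library was the lowest of its group for COL2A1, and the groups did not approach each other for either gene. ACAN, the core protein of the proteoglycan aggrecan (chromosome 21, 19677141 to 19744901), had normalized counts of 874, 823 and 789.7 in the SLC libraries and 7589.5, 6103 and 7275 in the MLC libraries. This is 8.45-fold by the fit (log2 difference 3.08, standard error 0.08, adjusted p = 2.77e-12 in edgeR), with SLC libraries within a narrow range. COL27A1, a fibrillar collagen of cartilage, had 116, 166 and 115 in SLC, against 612, 447 and 631 in MLC (log2 difference 2.08). HAPLN1, the link protein that ties aggrecan to hyaluronan, had 91.1, 119 and 106 in SLC and 435, 358 and 371 in MLC (log2 difference 1.88). COMP, a matrix protein shared by cartilage and tendon, was higher by 1.03, and COL11A2 (2.03), MATN2 (1.53), MIA (1.09) and MATN4 (1.08) were also higher.

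Other cartilage genes did not follow. COL11A1, partner of type II collagen in its fibrils, had 21652, 22475 and 20408 in the SLC libraries and 21051, 20229 and 21268 in the MLC libraries, and the groups overlapped (log2 difference -0.04). COL9A3, a second type IX chain, had low counts of 26.1, 30.1 and 25 in SLC, against 27, 20.5 and 24.4 in MLC, again overlapping. SCRG1, a gene found in chondrogenic cells, was the list member that was lower (-1.24). Without the second MLC library the list's median was 0.84.

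The fibrous and superficial matrix list split, with 28 of 50 tested genes higher and 16 lower in MLC (median 0.28). Several collagen, proteoglycan and matricellular genes were higher. COL5A3, a type V collagen chain, had 674, 732 and 671 in SLC and 2472, 2807 and 2521 in MLC (log2 difference 1.91, standard error 0.07, adjusted p = 8.07e-11 in edgeR). DCN and LUM, small proteoglycans that bind collagen fibrils, were higher by 1.04 and 1.00, the matricellular genes POSTN and TNC by 1.27 and 1.15, and the type III collagen gene COL3A1 by 0.70. Several genes of microfibrils and elastic fibres were lower. MFAP5, a microfibril component, had 3571, 3540.4 and 3936 in the SLC libraries and 382, 443 and 455 in the MLC libraries (log2 difference -3.10, standard error 0.08, adjusted p = 1.32e-12 in edgeR). No MLC library came near any SLC library for this gene. FBLN5, a fibulin needed for elastic fibre assembly, had 2029, 1870.2 and 1774 in SLC, against 500.4, 409 and 455 in MLC (-2.05), and PODN, a small leucine-rich proteoglycan, had 1213, 1023 and 969 in SLC and 138, 203 and 175 in MLC (-2.63). FBN1, which encodes fibrillin-1 (-1.18), the collagen-binding TGFBI (-1.91) and the fibulin FBLN2 (-1.70) were lower as well.

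The genes by which superficial cells are usually recognised gave mixed differences. PRG4, which encodes lubricin, had 66.7, 78.8 and 84.6 in the SLC libraries and 95.9, 90 and 127 in the MLC libraries, so its counts were low in both layers and slightly higher in MLC (log2 difference 0.44, adjusted p = 0.0466 in edgeR). That call passed in 4 of 14 alternative settings. THBS4, a thrombospondin of tendon and fibrous tissue, had 398, 386 and 374 in SLC, against 154, 222 and 200.2 in MLC and was lower in MLC (standard error of the log2 difference 0.12, adjusted p = 6.94e-06 in edgeR). COL1A1, the main collagen chain of fibrous tissue, had 657830.0, 624863 and 631392 in SLC and 568099, 533598 and 577948 in MLC (log2 difference -0.19, adjusted p = 0.0573 in edgeR), which missed the threshold although every MLC library lay below every SLC library, and it passed in 3 of 14 alternatives. TNMD, the tendon gene tenomodulin, had no count in any library. GDF5, a growth factor of joint interzones, was too low to be tested, at 9.92, 9.27 and 3.45 in the SLC libraries and 2.46, 2.28 and 8.15 in the MLC libraries.

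**Figure D2:**
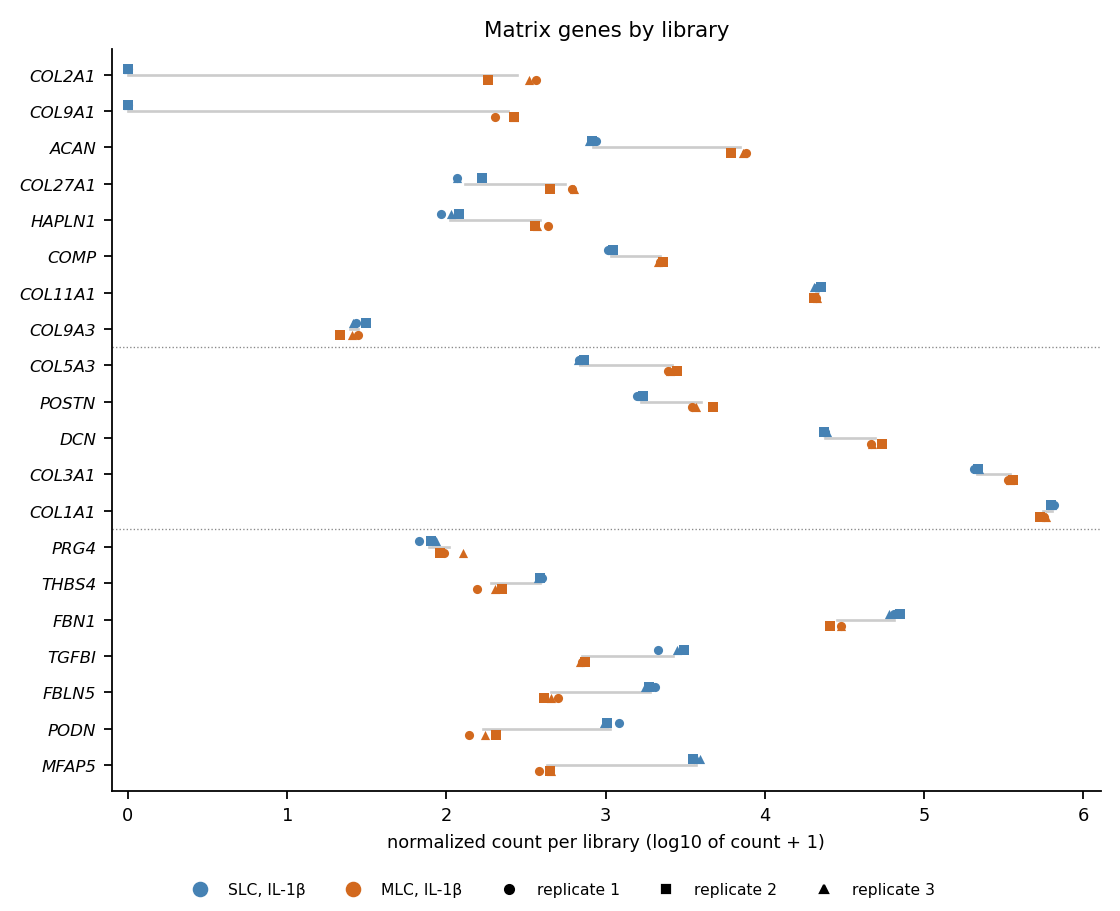
Normalized count of each matrix gene in each IL-1β library (log10 of count + 1), SLC in blue and MLC in orange, with the replicate given by the marker's shape and a grey line joining the group means. COL2A1 and COL9A1 sit at 0 in the 3 SLC libraries, ACAN to COMP are higher in MLC, and FBN1 to MFAP5 are lower in MLC.

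Of 15 tested basement membrane genes, 3 were higher and 6 lower in MLC, with a median log2 difference of -0.09. With all 12 libraries in one fit, 3 of 16 were higher and 5 lower. COL4A1, a type IV collagen chain, had 5606, 6078 and 5462 in SLC, against 1469, 1661 and 1682 in MLC (log2 difference -1.83, standard error 0.07, adjusted p = 1.07e-10 in edgeR). Its partner COL4A2 (-1.28) and COL18A1 (-1.21), the source of endostatin, were lower, whereas the laminin chain LAMC3 was higher by 1.70. Among enzymes that process and crosslink collagen, 14 of 19 were higher and 1 was lower. The 1 lower gene was LOX, the founding lysyl oxidase, with 23210.0, 24391 and 22322 in SLC and 10702, 10487 and 10583 in MLC (log2 difference -1.13, standard error 0.06, adjusted p = 2.5e-09 in edgeR). Its relatives were all higher, with LOXL4 at 1.48, LOXL1 at 0.47, LOXL2 at 0.40 and LOXL3 at 0.19. LOXL2, the gene the study is about, had 10731, 10768 and 11074 in SLC and 13391, 15248 and 14290.2 in MLC, without LOXL2 virus. The procollagen C-proteinase enhancer PCOLCE2 (0.86) and the prolyl hydroxylase subunit P4HA3 (0.77) were among the higher genes.

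Genes tied to hypertrophy and mineralization numbered 7 higher and 4 lower of 15 tested (median 0.56). MGP, SPP1 and S100A1 were on the higher side. MGP, matrix Gla protein, had 337, 251 and 213 in the SLC libraries and 1745, 2054 and 1709.8 in the MLC libraries (2.79), SPP1, osteopontin, had 222, 241 and 250.3 in SLC, against 1718, 1732 and 1705 in MLC (log2 difference 2.86, standard error 0.07, adjusted p = 1.05e-12 in edgeR), and the calcium-binding gene S100A1 had 35.2, 32.4 and 32.8 in SLC and 182, 209.6 and 183 in MLC (2.52). RUNX2, the transcription factor that drives hypertrophy and bone formation, was lower, with 616, 649.7 and 610.2 in the SLC libraries and 475, 358 and 448 in the MLC libraries (log2 difference -0.55, standard error 0.09, adjusted p = 0.000236 in edgeR). The alkaline phosphatase gene ALPL was lower too (-1.02). COL10A1, the collagen of hypertrophic cartilage, had 2.7, 3.09 and 0 in SLC, against 4.92, 0 and 0 in MLC and was too low to be tested in either layer.

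Several matrix proteases that break down collagen and proteoglycans differed widely between the layers. Of 46 tested proteases and inhibitors, 18 were higher and 15 lower in MLC, so the list as a whole was not one-sided (median -0.05). The collagenases and stromelysin, which IL-1β is known to raise in joint cells, were on the higher side. MMP3, stromelysin (chromosome 15, 76656465 to 76662892), had 110.0, 97.3 and 142 in SLC and 3283, 5604 and 3812 in MLC, which is 36.6-fold by the fit (log2 difference 5.19, standard error 0.19, adjusted p = 8.39e-11 in edgeR). MMP1, interstitial collagenase, had 90.2, 115 and 116 in the SLC libraries and 669, 1382 and 875 in the MLC libraries (log2 difference 3.19, standard error 0.22, adjusted p = 3.74e-08 in edgeR). MMP13, the collagenase most tied to osteoarthritis, had 20.7, 27 and 17.3 in SLC, against 77.5, 317 and 121 in MLC (log2 difference 2.98, standard error 0.44, adjusted p = 7.22e-05 in edgeR). In each of these genes the second MLC library was the highest, and without it the log2 differences were 4.94, 2.85 and 2.18. MMP12, the macrophage elastase gene, had 2 counts in all SLC libraries and 20.9, 29.6 and 29.1 normalized counts in MLC, a ratio of 47.5-fold (95% counting interval 12.7 to 400.0).

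The aggrecanases did not differ alike. ADAMTS4 had 214, 195 and 200.2 in SLC and 516, 725 and 568 in MLC (log2 difference 1.58, standard error 0.12, adjusted p = 7.64e-08 in edgeR). ADAMTS5 had 4634, 4426 and 3457 in the SLC libraries and 2811, 3726 and 3004 in the MLC libraries, and its groups overlapped. The fit placed it lower in MLC (log2 difference -0.39, standard error 0.11, adjusted p = 0.01 in edgeR), a call that 11 of 14 alternatives shared. ADAMTS5 missed the threshold under DESeq2's Wald test (adjusted p = 0.073). In edgeR it missed with all 12 libraries in one fit (adjusted p = 0.234) and without SLC replicate 1 (adjusted p = 0.0575). The pericellular proteases MMP2 (-0.17) and MMP14 (0.01) did not pass. Of the tissue inhibitors, TIMP1 was higher (0.40) and TIMP3 lower (-0.31).

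Among chondrocyte and skeletal transcription factors, 17 of 40 were higher and 11 lower in MLC. SOX9 (chromosome 19, 58090620 to 58096193), the master regulator of chondrocytes, had 383, 343 and 386 in the SLC libraries and 1620.4, 1354 and 1577 in the MLC libraries, 4.1-fold by the fit (log2 difference 2.04, standard error 0.08, adjusted p = 1.59e-10 in edgeR). Its partners SOX5 (1.30) and SOX6 (0.53) were also higher. SOX11, a SOX gene of skeletal progenitors, had 25.2, 22.4 and 27.6 in SLC, against 300.0, 234 and 279 in MLC (3.43), and CREB5, which promotes lubricin expression in articular chondrocytes, had 115, 126 and 104 in SLC and 355, 285 and 345 in MLC (1.51). The row named NFATC2 was higher by 1.86 at low counts, but RefSeq annotates it as a long noncoding RNA, so it may not measure the transcription factor. RUNX3 had 2 counts in all SLC libraries and 11.1, 12.5 and 12.8 normalized counts in MLC.

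Transcription factors that mark position in the body parted the layers. Of 60 tested jaw and limb patterning genes, 36 were higher and 14 lower in MLC, with a median log2 difference of 0.90 (0.24 when every library had to hold at least 10 counts, which drops genes absent from one layer). By the 2-fold rule, 29 were higher and 9 lower. Taking all 37 HOX genes of the table, a set chosen after the values were seen, 19 had enough counts to be tested. Of these, HOXD3, HOXD8 and HOXD9 had 55, 236 and 69 counts in SLC. But 6 HOXA and 2 HOXC genes had no count in SLC, and the other HOXA and HOXC genes only a few. Those HOXA and HOXC genes passed the filter through MLC alone and could only come out higher. The share of tested HOX genes that were higher is therefore no result, and the same holds in part for the patterning list. Over all 37, 10 to 15 genes had a count in an SLC library and 25 to 26 in an MLC library, and the counts summed to 121 to 138 normalized counts in SLC and 1491 to 1686 in MLC.

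The HOX clusters differed from one another. In the HOXA cluster (chromosome 4, 51262987 to 51369167), 9 of 11 genes were tested, and 6 of the 9 were at 0 in every SLC library. HOXA9 had 192, 269 and 197 normalized counts in MLC, at least 260.0-fold higher than the floor in SLC (adjusted p = 2.84e-09 in edgeR). HOXA10 had 134, 129.9 and 108, at least 147-fold higher. HOXA11 and HOXA13, which pattern the middle and far ends of the limb, had 16, 28.5 and 16.3 and 14.8, 15.9 and 10.5 in MLC and none in SLC. In the HOXC cluster (chromosome 5, 25716010 to 25832010), 7 of 9 genes were tested. HOXC10 was at 0 in SLC and had 50.4, 55.8 and 47.7 in MLC, at least 60.9-fold higher. HOXC6 had 5.41, 3.86 and 3.45 in the SLC libraries and 205, 164 and 172 in the MLC libraries. Of the 8 genes of the HOXD cluster (chromosome 2, 115499864 to 115596023), HOXD3, HOXD8 and HOXD9 were counted in both layers, and 5 had no count in SLC, of which 3 had none in MLC either. HOXD8 had 62.2, 59.5 and 77.7 in SLC, against 130.3, 138 and 118 in MLC (0.96) and HOXD9 had 24.3, 19.3 and 14.7 in SLC and 289, 279 and 294 in MLC (log2 difference 3.89, standard error 0.16, adjusted p = 2.45e-10 in edgeR). None of the 9 HOXB genes (chromosome 19, 37426632 to 37593510) had enough counts to be tested, and 4 of them had no count in either layer. Whether the counting used strand is not given in the sources used here, so reads of antisense or overlapping transcripts in these clusters cannot be told from those of the HOX genes.

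TBX4, TBX5, LMX1B and HAND2, limb genes outside the HOX clusters, were higher in MLC as well. With few or no counts in SLC, they passed the count filter through MLC alone and could only come out higher. TBX4 (chromosome 19, 11242889 to 11270160) had 0 in each SLC library and 181, 197 and 189.7 in MLC, at least 225-fold higher. TBX5 had 2 counts over the SLC libraries and 49.2, 43.3 and 46.6 normalized counts in MLC, a ratio of 82.4-fold (95% counting interval 22.3 to 688). LMX1B, which specifies the dorsal limb, had 2 counts in SLC and 61.5, 77.5 and 82.6 in MLC, a ratio of 132-fold (95% counting interval 36 to 1100.0). HAND2, needed at the posterior limb margin and in the mandibular arch, had 9.02, 3.09 and 1.73 in the SLC libraries and 65.2, 77.5 and 72.2 in the MLC libraries (3.96).

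DLX1, DLX2, DLX5 and DLX6 ran the other way. DLX5 (chromosome 4, 106264730 to 106269161), which with DLX6 specifies the lower jaw, had 442, 433 and 439 in SLC, against 9.84, 26.2 and 11.6 in MLC (log2 difference -4.75, standard error 0.19, adjusted p = 1.56e-10 in edgeR). DLX6 had 154, 175 and 173 in SLC and 2 counts over the MLC libraries, a ratio of 214-fold (95% counting interval 59.1 to 1770.0). DLX1 had 31.6, 47.9 and 34.5 in SLC and none in MLC, at least 32.3-fold lower in MLC, and DLX2 had 114, 142 and 137 in SLC and 6.15, 12.5 and 17.5 in MLC (-3.42). The family was not uniform. DLX4 was lower by less (-1.24), and DLX3 had 515, 483 and 495 in the SLC libraries and 481, 450.0 and 478 in the MLC libraries and did not pass. PAX1, a gene of pharyngeal pouches and sclerotome, had 224, 239 and 207 in SLC, against 7.38, 13.7 and 10.5 in MLC (log2 difference -4.38, standard error 0.20, adjusted p = 5.53e-10 in edgeR). PAX7, a gene of neural crest and muscle progenitors, had 254, 267 and 250.3 in SLC and 1.23, 5.7 and 3.49 in MLC (log2 difference -6.14, standard error 0.24, adjusted p = 1.32e-10 in edgeR), and the muscle genes MYOD1 and MYOG were at 0 beside it.

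Other regulators with a role in the jaw, not all of them particular to it, were counted in every library of both layers. BARX1, a marker of the mesenchyme of the jaws and molars, had 758, 674 and 779 in the SLC libraries and 1132, 1287 and 1227 in the MLC libraries (0.73). LHX8, of first-arch mesenchyme, had 264, 309.8 and 306 in SLC, against 306, 286 and 318 in MLC, with overlapping groups. PITX1, which serves both the first arch and the hindlimb, was higher by 0.72, MSX1 by 1.19 and PAX9 by 1.48. The MLC libraries thus held counts on both HOX genes and BARX1, and whether the same cells carried them cannot be told from bulk RNA. Why genes of the trunk and limbs were counted in cells labelled TMJ was not tested.

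**Figure D3:**
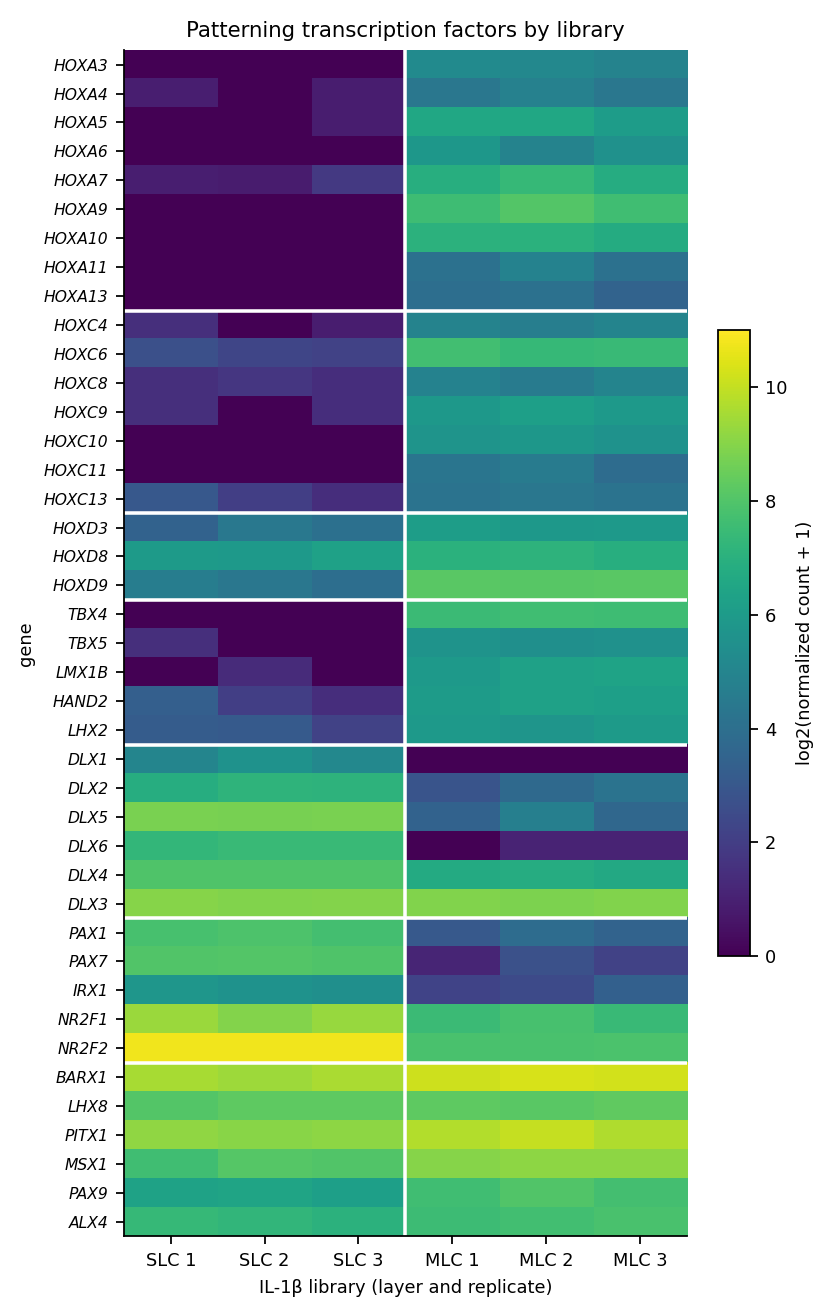
Heat map of log2(normalized count + 1) for patterning genes (rows) in the 6 IL-1β libraries (columns). Rows are grouped as HOXA, HOXC, HOXD, other limb genes, DLX genes, other genes lower in MLC, and genes with a role in the jaw counted in both layers. The HOXA, HOXC and limb rows are darker (lower) in SLC, the DLX1, DLX2, DLX5 and DLX6 rows are darker in MLC, and the last group is bright in all 6 columns.

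Among transcription factors of tendon and fibroblasts, 13 of 44 were higher and 19 lower. The orphan nuclear receptors NR2F1 and NR2F2 (COUP-TFI and COUP-TFII) were lower in MLC. NR2F2 had 1742, 1735 and 1736 in SLC and 229, 229 and 236 in MLC (log2 difference -2.91, standard error 0.07, adjusted p = 7.43e-13 in edgeR), an unusually tight set of replicates, and NR2F1 had 653, 498 and 621 in the SLC libraries and 178, 219 and 177 in the MLC libraries (-1.62). FOXP2 (-1.79) and TWIST2 (-1.56), a factor of dermal and connective tissue progenitors, were lower as well. GATA6 had 17.1, 14.7 and 19 in SLC and 1 count in MLC. SCX, the tendon factor scleraxis, had 74.8, 126 and 109.6 in SLC, against 151, 131 and 97.8 in MLC, with overlapping groups and no call (log2 difference 0.28), whereas the tendon factor MKX was higher by 1.01.

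Receptors for IL-1, TNF and other cytokines split, with 14 of 42 higher and 11 lower (median 0.04). IL1R1, the signaling receptor for IL-1β, had 796, 671 and 688 in SLC and 1238, 1326 and 1281 in MLC (log2 difference 0.84, standard error 0.07, adjusted p = 4.59e-07 in edgeR). Its co-receptor IL1RAP did not pass (0.17). The decoy receptor IL1R2 had 2 counts in SLC and 1 in MLC and was not tested. IL1RN, the receptor antagonist, had 36.1, 20.1 and 26.8 in the SLC libraries and 11.1, 11.4 and 8.15 in the MLC libraries and was lower in MLC (log2 difference -1.41, standard error 0.35, adjusted p = 0.00397 in edgeR). The TNF receptor TNFRSF1A was slightly lower by the fit, with overlapping groups (-0.22), and TNFRSF11B, the RANKL decoy osteoprotegerin, had 33.4, 23.9 and 14.7 in SLC, against 225, 265 and 194 in MLC (log2 difference 3.25, standard error 0.22, adjusted p = 2.42e-08 in edgeR). The chemokine scavenger ACKR4 (-2.36), the IL-10 receptor gene IL10RA (-1.62) and the oncostatin M receptor gene OSMR (-0.85) were lower.

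Growth factor receptors were lower more often than higher, 30 against 16 of 68 tested (median -0.12). With all 12 libraries in one fit the split was nearly even, 17 lower against 15 higher of 71. BMPR1B, a BMP receptor of cartilage condensations, had 114, 107 and 121 in SLC and 7.38, 6.83 and 6.98 in MLC (log2 difference -3.99, standard error 0.24, adjusted p = 7.39e-09 in edgeR), and the neurotrophin receptor gene NTRK3 was lower (-2.49). EGFR had 1167, 1089 and 908 in the SLC libraries and 333, 396 and 392 in the MLC libraries (-1.49). On the higher side, FGFRL1, an FGF receptor without a kinase domain, had 43.3, 51 and 46.6 in SLC, against 374, 357 and 367 in MLC (log2 difference 2.96, standard error 0.12, adjusted p = 1.59e-10 in edgeR), and the Wnt receptor FZD5 was higher by 2.42. Among G protein-coupled receptors and ion channels, 19 of 49 were higher and 14 lower. S1PR3, a sphingosine 1-phosphate receptor, had 50.5, 69.5 and 71.6 in SLC and 364, 550.2 and 389 in MLC (2.76). Lower genes included F2RL2, a thrombin receptor (-2.98), CALCRL, the receptor of CGRP and adrenomedullin (-2.76), CACNA1C, an L-type calcium channel (-2.65), and the water channel AQP1 (-2.62). PTGER4, a prostaglandin E2 receptor, had 445, 450.4 and 436 in the SLC libraries and 99.6, 133 and 91.9 in the MLC libraries (-2.03), and PTGER2 was lower too (-1.37).

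Integrin subunits numbered 9 higher and 6 lower of 20. The alpha chains that pair with beta 1 to bind collagen were divided. ITGA10, the chondrocyte collagen receptor chain, had 157, 148 and 118 in SLC, against 765, 589 and 739 in MLC (log2 difference 2.31, standard error 0.12, adjusted p = 1.9e-09 in edgeR), and ITGA11 had 682, 726 and 588 in SLC and 2063, 1809 and 1969 in MLC (1.55). ITGA1 and ITGA2 were lower (-0.51 and -1.23), and the shared beta chain ITGB1 did not pass (-0.01). ITGB3, of the vitronectin receptor, had 679.7, 762 and 644 in the SLC libraries and 181, 147 and 200.2 in the MLC libraries (-1.98), and ITGB4, of hemidesmosomes, was lower (-2.67).

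Inflammatory cytokines and chemokines were higher in MLC more often than lower, 14 against 6 of 25 tested (median 0.51). IL6 had 1761, 2663 and 2621 in SLC, against 4698, 9534 and 5376 in MLC (log2 difference 1.48, standard error 0.21, adjusted p = 4.75e-05 in edgeR). CXCL8, the neutrophil attractant IL-8, had 3169, 3487 and 3821 in SLC and 4507, 7393 and 5325 in MLC (log2 difference 0.72, standard error 0.13, adjusted p = 0.000462 in edgeR). CCL20, which attracts CCR6-bearing cells, had 879.9, 767 and 925 in the SLC libraries and 1065, 2266 and 1398 in the MLC libraries (log2 difference 0.89, standard error 0.19, adjusted p = 0.00145 in edgeR), a call kept in 13 of 14 alternatives. The second MLC library was the highest of its group in all 3. Without it the log2 differences were 1.10, 0.50 and 0.53.

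The colony-stimulating factor CSF3 had 81.1, 99.7 and 107 in SLC, against 194, 467 and 297 in MLC (1.74, and 1.36 without the second MLC library). CCL5, a T cell attractant, had 27.9, 30.1 and 34.5 in SLC and 92.2, 139 and 102 in MLC (1.85), and TNFSF13B, the B cell survival factor BAFF, had 129, 114 and 123 in the SLC libraries and 539, 755 and 644 in the MLC libraries (log2 difference 2.41, standard error 0.12, adjusted p = 1.52e-09 in edgeR). Of the IL-6 family, LIF was higher by 0.87 and IL11 by 1.03. Lower in MLC were CXCL12, a chemokine of stromal cells, with 1028, 1044 and 982 in SLC, against 214, 193 and 264 in MLC (log2 difference -2.18, standard error 0.10, adjusted p = 3.66e-10 in edgeR), and IL33, an alarmin, with 30.7, 21.6 and 22.4 in SLC and 3.69, 2.28 and 0 in MLC (-3.58). IL1B itself had 1 count in SLC and 2 in MLC and was not tested.

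Prostaglandin and early response genes were drawn from a further list of 69 tested IL-1-responsive genes, of which 26 were higher and 18 lower (median 0.15, and close to 0 without the second MLC library). PTGS2, the inducible cyclooxygenase (chromosome 16, 66345155 to 66353195), had 1319.8, 1787 and 1718 in the SLC libraries and 6238, 10358 and 7093 in the MLC libraries, 4.92-fold by the fit (log2 difference 2.30, standard error 0.16, adjusted p = 3.19e-08 in edgeR). Without the second MLC library, again the highest, its log2 difference was 2.05. PTGS1, the constitutive cyclooxygenase, had 22.5, 20.1 and 26.8 in the SLC libraries and 237, 255 and 233 in the MLC libraries (log2 difference 3.39, standard error 0.16, adjusted p = 5.78e-10 in edgeR). The terminal synthase PTGES had 1360.4, 1454 and 1695 in SLC, against 1264, 2385 and 1439.7 in MLC, with overlapping groups. TNFAIP6, a hyaluronan-binding protein induced by TNF and IL-1, had 22.5, 30.1 and 50.9 in SLC and 135, 155 and 123 in MLC (1.997), and the EGF family ligand EREG was higher by 1.79. The pentraxin PTX3 had 607, 616 and 853 in the SLC libraries and 1490.1, 3585 and 1805 in the MLC libraries (1.74). The central complement gene C3 was lower, with 18176, 16201 and 16596 in SLC, against 8187, 10819.8 and 9020.1 in MLC (-0.86), as was complement factor B, CFB (-1.10). The mitochondrial dismutase gene SOD2 had 53088, 43296 and 49286 in SLC and 37532, 63993 and 43832 in MLC and ICAM1 had 1712, 1731 and 1864 in the SLC libraries and 1639, 2570.0 and 1845 in the MLC libraries, and in both the groups overlapped with the second MLC library on top.

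NF-κB genes passed the threshold about as often as genes at large. Of 50 tested subunits, regulators and feedback genes, 16 were higher and 8 lower, a share (48%) near that of all genes (46.9%). NFKB1, the p105 and p50 subunit gene, had 1995, 1954 and 1949 in SLC, against 2834, 3432 and 2891 in MLC (log2 difference 0.64, standard error 0.07, adjusted p = 6.09e-06 in edgeR). NFKBIA, the feedback inhibitor IκBα, had 1606, 1357 and 1471 in SLC and 1534, 1818 and 1585 in MLC, with overlapping groups (log2 difference 0.16), and TNFAIP3 (A20) did not pass (-0.27). The larger differences were in SIGIRR, a membrane inhibitor of IL-1 receptor signaling, with 26.1, 23.9 and 19 in the SLC libraries and 105, 114 and 122 in the MLC libraries (2.30), in TNIP3, an A20-binding inhibitor, with 98.3, 90.4 and 85.4 in SLC, against 9.84, 29.6 and 18.6 in MLC (-2.21), in NFKBIE (0.73) and in REL (1.06, past the threshold in 13 of 14 alternatives). Interferon-stimulated genes, tested as a further inflammatory group, had 5 of 37 higher and 13 lower, a share (48.6%) also near that of all genes. With all 12 libraries in one fit, 2 of 38 were higher and 5 lower. IFIT3 (-1.49), RSAD2 (-1.08) and the immunoproteasome subunit PSMB8 (-0.71) were lower, and MX2 (1.36) was higher.

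**Figure D4:**
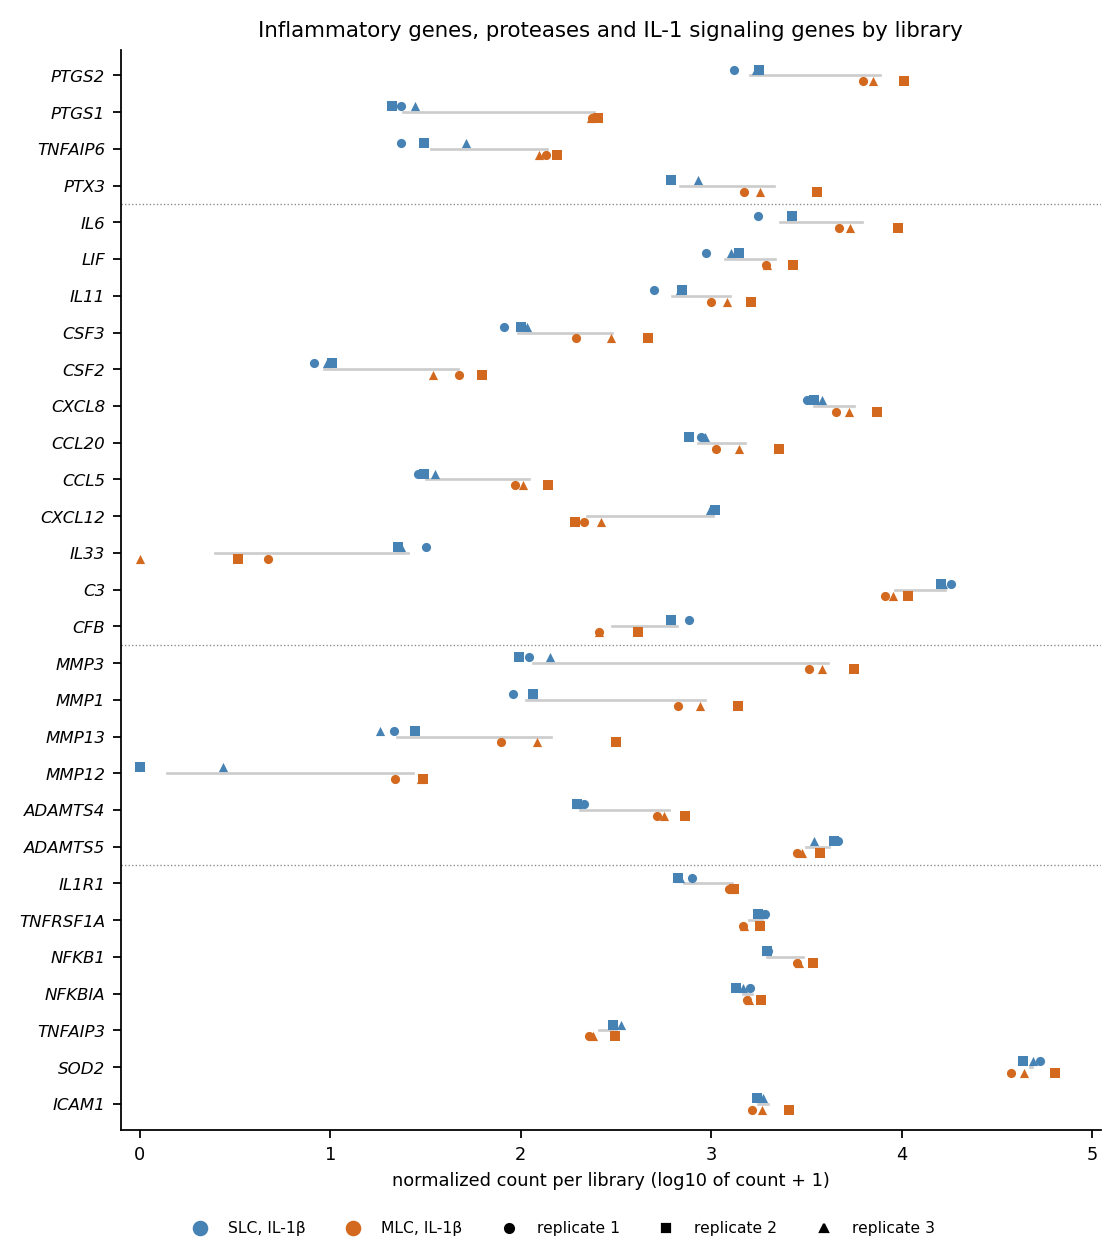
Normalized count of inflammatory, protease and IL-1 signaling genes in each IL-1β library (log10 of count + 1), SLC in blue and MLC in orange, with the replicate given by the marker's shape. MMP3, MMP1, PTGS2 and IL6 are higher in every MLC library with the second MLC library (square) highest, and NFKBIA, SOD2 and ICAM1 overlap.

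Secreted regulators of BMP, TGF-β and Wnt signaling were divided, 14 higher and 15 lower of 40. The secreted Wnt antagonists did not move as a family. FRZB, known from articular cartilage, had 3.61, 6.95 and 5.18 in SLC and 72.5, 108 and 88.5 in MLC (log2 difference 4.05, standard error 0.30, adjusted p = 6.6e-08 in edgeR), whereas SFRP1 had 3817, 3077 and 3007 in the SLC libraries and 566, 693 and 496 in the MLC libraries (log2 difference -2.49, standard error 0.11, adjusted p = 5.53e-10 in edgeR) and SFRP5 had 463, 596 and 570.5 in SLC, against 79.9, 96.8 and 79.1 in MLC (-2.67). WNT5A, a ligand of noncanonical Wnt signaling, had 688, 905 and 806 in SLC and 2956, 2872 and 2968 in MLC (1.88). BMP4 had 536, 647 and 692 in the SLC libraries and 1105, 1168 and 1159 in the MLC libraries (0.87), and BMP6 had 36.1, 45.6 and 27.6 in SLC, against 2.46, 3.42 and 1.16 in MLC (-3.89).

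In the FGF, IGF and other growth factor list, 17 of 50 were higher and 19 lower. IGF1 (chromosome 5, 64862983 to 64943172), an anabolic factor for cartilage, had 1453, 1604 and 1380.0 in SLC and 61.5, 64.9 and 33.8 in MLC, so the lowest SLC library was far above the highest MLC library (log2 difference -4.79, standard error 0.14, adjusted p = 5.41e-12 in edgeR). Its binding protein IGFBP4 had 4832, 5778 and 5181 in the SLC libraries and 1151, 1261 and 1113 in the MLC libraries (-2.16). FGF13, an intracellular member of the FGF family, had 202, 139 and 161 in SLC, against 7.38, 10.3 and 10.5 in MLC (-4.13). TGFA, a ligand of EGFR, had 65.8, 91.9 and 70.8 in SLC and 573, 429 and 520.3 in MLC (2.73), opposite in direction to the receptor gene EGFR given above.

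Proliferation genes were uniformly higher in MLC. All 50 of the 50 tested mitosis and replication genes passed, and 43 of them by at least 2-fold (median 1.21). E2F1, a transcription factor of S phase entry, had 91.1, 116 and 129 in the SLC libraries and 489, 352 and 509 in the MLC libraries (log2 difference 2.01, standard error 0.15, adjusted p = 8.31e-08 in edgeR). MCM5, of the replicative helicase, had 355, 494 and 449 in SLC, against 1547, 1141 and 1525 in MLC (1.70), the replication licensing gene CDC6 had 35.2, 35.5 and 36.2 in SLC and 136, 84.3 and 142 in MLC (1.76), and UHRF1, which maintains DNA methylation at replication, had 418, 531 and 405 in the SLC libraries and 1595, 1147 and 1599 in the MLC libraries (1.68). The second MLC library was the lowest of its group for each of these 4 genes and for MKI67 (1390.1, 2008 and 1642 in SLC, against 4688, 3029 and 4391 in MLC), the reverse of its place for the inflammatory genes. Without it the list's median was 1.31.

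Cholesterol and lipid synthesis genes were mostly higher, 21 against 3 of 31 (median 0.40). The larger ones were INSIG1, a brake on sterol sensing (1.09), the desaturase FADS2 (1.04), the lipid regulator SREBF1 (0.83) and the elongase ELOVL6 (0.78). Hypoxia and glycolysis genes were split, 12 higher and 14 lower of 37. CA12, a carbonic anhydrase, had 2580.1, 3116 and 3175 in SLC and 8557, 10053 and 8872 in MLC (1.63), and the lactate exporter SLC16A3 had 353, 363 and 348 in the SLC libraries and 1055, 1342 and 1085 in the MLC libraries (1.71). ALDOC was higher by 1.43, and NDRG1, a hypoxia-responsive gene, had 8539, 7414 and 8036 in SLC, against 3101, 4124 and 3429 in MLC (-1.17). Contractile genes leaned lower in MLC, 15 against 2 of 27. ACTA2, smooth muscle actin and a marker of myofibroblasts, had 23902, 31153 and 30603 in SLC and 15763, 13946 and 15554 in MLC (log2 difference -0.92, standard error 0.09, adjusted p = 1.49e-06 in edgeR), the focal adhesion gene VCL was lower (-0.96), and SYNPO2, an actin-binding protein, had 404, 589 and 389 in the SLC libraries and 49.2, 45.6 and 62.9 in the MLC libraries (-3.13). ACTG2 (1.03) and KCNMB1 (1.07) were the 2 higher members.

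**Figure D5:**
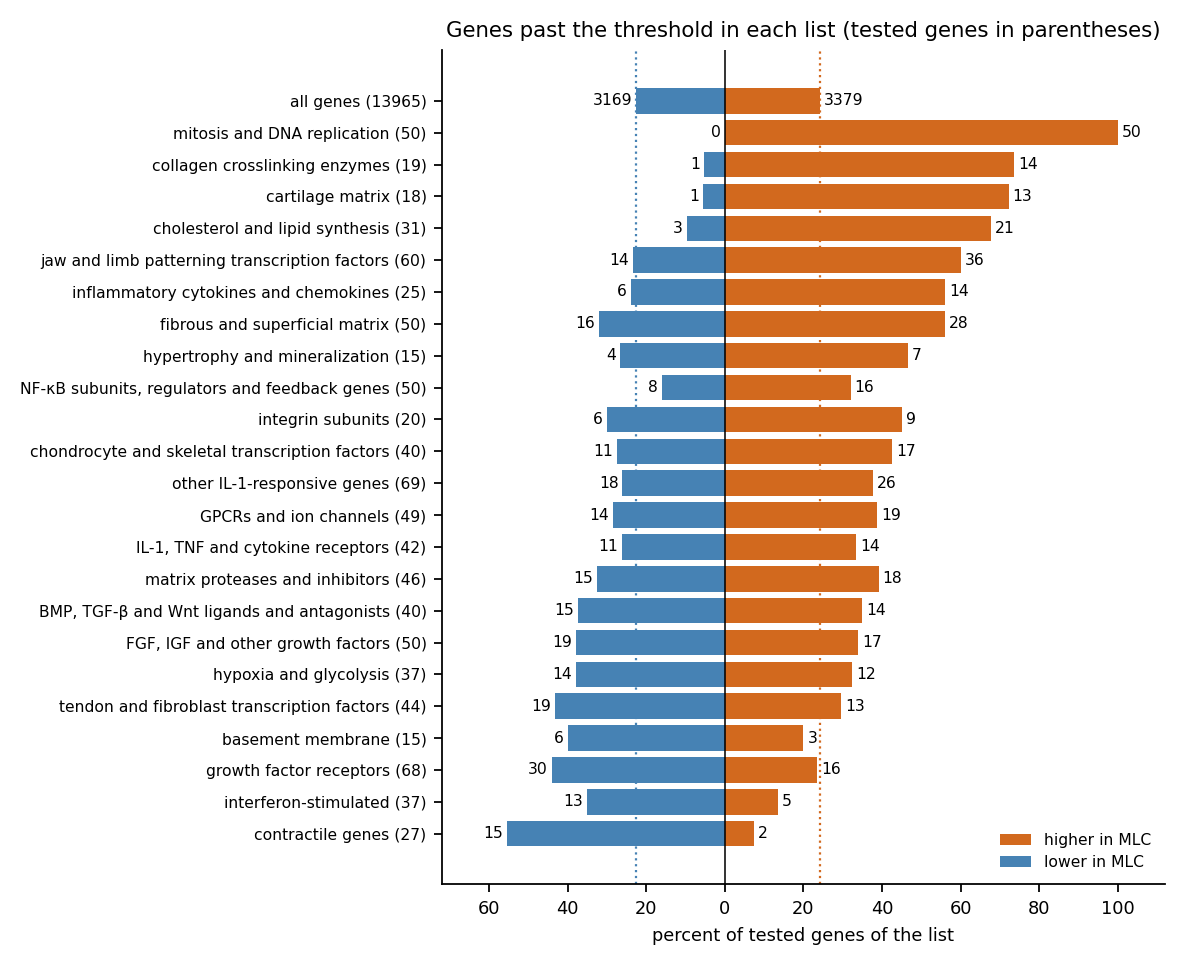
Share of the tested genes of each list that passed an adjusted p of 0.05 in edgeR, higher in MLC to the right (orange) and lower to the left (blue) and tested genes in parentheses. Dotted lines mark the shares over all 13965 tested genes (24.2% higher, 22.7% lower), which mitosis and DNA replication, collagen crosslinking enzymes and cartilage matrix exceed most on the higher side.

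Some of the widest differences were in genes of no list. GREB1, an estrogen-regulated gene (chromosome 11, 85826492 to 85955421), had 6.31, 2.32 and 4.32 in SLC, against 1941, 1618 and 1817 in MLC (log2 difference 8.69, standard error 0.16, adjusted p = 5.76e-14 in edgeR). F13A1, the catalytic subunit of the transglutaminase factor XIII (chromosome 23, 16707927 to 16848171), had 10.8, 13.1 and 13.8 in SLC and 4930.2, 3527 and 4682 in MLC (log2 difference 8.43, standard error 0.17, adjusted p = 1.4e-13 in edgeR). B4GALNT3, a glycosyltransferase, had no count in SLC and 216, 189 and 225 in MLC, at least 249-fold higher. The SLC counts of these 3 genes were so low that their levels there rest on 45 counts or fewer in all. GREB1 (15 counts in SLC) and B4GALNT3 passed the count filter through MLC alone and could only come out higher. The synaptotagmin gene SYT8 (6.10), the neuritin gene NRN1 (5.92), the keratin gene KRT19 (5.88) and the ankyrin gene ANK1 (4.87) were also far higher in MLC.

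In the lower direction, ASIP, the agouti signaling protein that antagonises melanocortin receptors (chromosome 13, 63228709 to 63249542), had 1249, 1202 and 1507 in the SLC libraries and 4.92, 4.56 and 8.15 in the MLC libraries (log2 difference -7.78, standard error 0.18, adjusted p = 6.66e-13 in edgeR). ABLIM1, an actin-binding LIM protein, had 305, 294 and 280.5 in SLC, against 8.61, 12.5 and 17.5 in MLC (-4.48), LRRC32 (GARP), which displays latent TGF-β on the cell surface, had 220.0, 288 and 225 in SLC and 32, 10.3 and 30.3 in MLC (-3.34), and the vesicle GTPase gene RAB3B had 241, 202 and 255 in the SLC libraries and 23.4, 18.2 and 19.8 in the MLC libraries (-3.50). ADAMTSL3, an ADAMTS-like matrix protein without protease activity, had 515, 429 and 425 in SLC, against 61.5, 52.4 and 39.6 in MLC (-3.15). The mitochondrial gene ND4L had 407, 466 and 378 in SLC and 63.9, 34.2 and 27.9 in MLC (-3.32). It overlaps its neighbour ND4, which was higher in MLC (0.50), and how reads on the overlap were assigned is not given in the sources used here, so the value for ND4L is uncertain.

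The layer difference was read again in the 6 libraries with IL-1β and LOXL2, which share no library with the comparison above but come from the same labelled layers and may come from the same cultures. Of 14085 genes tested there, 2268 (16.1%) passed, 1306 higher and 962 lower in MLC. These counts were unstable, at 2388 and 2291 without SLC replicate 1 of that group, 695 and 460 without SLC replicate 3, and 863 and 545, 701 and 439, and 754 and 453 without MLC replicates 1, 2 and 3. Of the 6474 genes called above that were tested there, 6155 (95.1%) had the same sign, 2119 (32.7%) also passed, and 0 passed in the opposite direction. For the 1452 of these with at least a 2-fold difference the same sign held in 1444 (99.4%) and 1146 (78.9%) passed. Log2 differences there were 3.12 for ACAN, 2.13 for SOX9, 4.98 for MMP3, 2.68 for PTGS2, 3.60 for HOXD9, -4.76 for DLX5, -4.30 for IGF1 and -8.34 for ASIP. Several inflammatory and other genes kept their sign there without passing. Among them were IL6 (1.70), MMP13 (1.91), CXCL8 (0.60), CSF3 (1.31), CCL5 (1.99) and RUNX2 (-0.31), with adjusted p from 0.0539 for IL6 to 0.309 for RUNX2 in edgeR. The same held for PRG4 (0.30), IL1RN (-1.28), REL (0.97), NFKBIE (0.49), RSAD2 (-0.72) and VCL (-0.63). It also held for COL18A1 (-0.96), ALDOC (1.11), FADS2 (0.77), SREBF1 (0.48) and ELOVL6 (0.65). CCL20 (-0.10), NFKBIA (-0.18) and ADAMTS5 (0.14) had the opposite sign there, none past the threshold. The interaction of the layer difference with LOXL2, over all 12 libraries, passed the threshold in 0 of 14534 genes (0%) with edgeR and in 0 with DESeq2, with 328 at an unadjusted p under 0.05 in edgeR, and 1 gene passed without the first SLC library with LOXL2. A missed threshold does not show that the layer differences were alike in both treatments.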

How the data were processed

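The authors aligned poly(A)-selected RNA-seq reads with HISAT2 and deposited featureCounts counts per gene, 1 table for each layer. Strand setting, treatment of multiply mapped reads and annotation version are not given in the sources used here. The 2 tables have 28910 rows each and were joined by row after the gene names were checked to be identical. Of the rows, 26 carry names turned into dates by a spreadsheet and were not named in the text, and gene spans come from RefSeq, assembly ARS1.2. Every sample column was used.

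Counts were fitted with edgeR 4.0.16 (R 4.3.3, limma 3.58.1) by its quasi-likelihood test on 6 libraries, with TMM scaling, filterByExpr (minimum count 10, minimum total 15) and Benjamini-Hochberg adjustment over all tested genes at 0.05. Standard errors are the size of the log2 difference over the square root of its F statistic. Normalized counts are counts divided by DESeq2 1.42.0 size factors and are not corrected for length, so levels are compared only within a gene. Folds against a layer with no count use a floor of 3 counts over that layer's libraries, and ratios with 1 to 3 counts carry exact 95% intervals. Both cover counting error only. The fitting was tested on simulated data with known changes first.

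Named genes were up to 12 with the largest difference in either direction at a mean of at least 200 normalized counts with layers that did not overlap, up to 4 per list at a mean of at least 50, and a fixed list. Other genes are given as background to these or as list members chosen after their values were seen. Some genes that were chosen are not reported here. The comparison, the gene lists and the markers were chosen with earlier results of these data known. Alternatives were DESeq2 scaling, other filters, DESeq2's Wald test, a replicate block, a fit of all 12 libraries, thinning to equal depth, removal of a gene-span trend, glmTreat, and leaving out each library.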

Additional observations from a re-analysis of the deposited data

How the results depend on the processing

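Of 124 named genes that were tested, 119 kept their direction and their side of the threshold under each of the 14 alternatives that gave them a value (genes absent from one layer have none under the strictest filter), and no named gene changed direction. The exceptions were COL1A1, ADAMTS5, CCL20, PRG4 and REL, given with their counts of settings in the report. The cause of these changes was not tested. Genes at least 2-fold lower in MLC fell to 355 when every library had to hold at least 10 counts, a filter that removes genes absent from one layer. With all 12 libraries in one fit, 2063 genes were higher and 1652 lower, and the cause was not tested. A test against a 2-fold difference itself (glmTreat) left 460 genes higher and 294 lower. Leaving out each library in turn gave 2856 to 3392 genes higher, 2554 to 3233 lower, 913 to 986 at least 2-fold higher and 581 to 686 at least 2-fold lower. In the libraries with LOXL2 the ranges were 695 to 2388 higher and 439 to 2291 lower, and in the interaction 0 to 1.

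Same-numbered libraries of the layers did not deviate together (correlations over genes of -0.0472, -0.0989 and -0.0458). With 3 libraries per layer, these values cannot tell whether same-numbered libraries share an animal or a batch. A replicate block gave 3031 genes higher and 2785 lower. Of the medians of 23 lists, 271 values stayed within the spread between replicates and 28 moved beyond it. The sign changed for other IL-1-responsive genes without the second MLC library (-0.0025), for FGF, IGF and other growth factors with at least 10 counts in every library (0.06), and for integrin subunits with no filter (-0.15), under DESeq2's Wald test (-0.14), with all 12 libraries (-0.00043) and in several other settings, the highest value being 0.048 without MLC replicate 2. With all 12 libraries in one fit the balance of higher to lower calls turned for integrins (4 to 5), BMP, TGF-β and Wnt regulators (14 to 11) and FGF, IGF and other growth factors (18 to 15). Depth limits the genes under about 10 counts per library, which include HOXB genes, GDF5, COL10A1, IL1B and IL1R2, and for them a difference was not detectable here.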

Other observations

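The following genes were chosen after their values were seen. An unnamed long noncoding RNA on chromosome X (LOC102169084, X, 8835812 to 8870487, ARS1.2), which lies between LOC102168808 and CHIC1, was counted almost only in SLC. Its counts were 4373, 5510 and 4132 in the SLC libraries with IL-1β, and 3977, 3851 and 3034 in the SLC libraries with IL-1β and LOXL2. In MLC they were 3, 5 and 9 with IL-1β, and 11, 2 and 1 with IL-1β and LOXL2. The fitted log2 difference under IL-1β was -9.17 (adjusted p = 3.47e-14 in edgeR), and no library of one layer approached the other layer. Its neighbour CHIC1, a membrane-associated protein gene, had 101, 91 and 96 counts in the SLC libraries and 46, 51 and 44 in the MLC libraries under IL-1β, before scaling for depth. RLIM, on the other side of it (X, 8144896 to 8171196), had 1312, 1708 and 1217 such counts in SLC and 835, 811 and 883 in MLC. Of 338 tested genes on chromosome X, 51 were higher and 92 lower in MLC, with a median log2 difference of -0.123. The medians of the numbered chromosomes ran from -0.0626 to 0.0615. In the libraries with LOXL2 the chromosome X median was -0.0533, inside the range of the numbered chromosomes there (-0.0869 to 0.0341). The study's methods give the goats as female without naming a layer. Whether the animals behind the 2 layers differed in sex, or in the state of chromosome X, was not tested and cannot be told apart from layer.

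Some genes of epithelia were counted in MLC at moderate levels. KRT14, a keratin of basal epithelial cells, had 0, 2.32 and 6.9 normalized counts in the SLC libraries and 162, 117 and 168 in the MLC libraries (log2 difference 5.54, standard error 0.38, adjusted p = 3.74e-08 in edgeR). SFN, the epithelial 14-3-3 sigma protein, had 3.61, 1.55 and 0 in the SLC libraries and 106, 110.5 and 135 in the MLC libraries (log2 difference 6.02), and the tight junction gene CLDN4 had 142, 124 and 143 in SLC, against 329, 489.8 and 422 in MLC (1.61). KRT5, the usual partner of KRT14, was at 0 in both layers. Other epithelial markers were too low to be tested, with 36 counts in SLC and 5 in MLC for EPCAM, 10 and 5 for CDH1, 1 and 0 for KRT8, and none for KRT18. Whether these counts come from other cells was not tested.

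Of the tested genes, 22 had no count in any library of a layer. They passed the count filter through the other layer alone and could only come out higher there, so how many passed is no result. Among genes that passed the threshold, 16 had no count in any SLC library and 6 had none in any MLC library. Beside the cartilage and patterning genes described above, the first set held RSPO4, a Wnt-enhancing secreted protein, with 11.1, 15.9 and 10.5 in MLC (at least 14.8-fold higher), and PNPLA3, a lipase of lipid droplets, with 32, 26.2 and 31.4 (at least 35.5-fold higher). The second set held GABRA4, a GABA-A receptor subunit, with 23.4, 28.6 and 26.8 in SLC (at least 22.3-fold lower in MLC), and LRRC7, a scaffold protein of neuronal synapses, with 12.6, 10 and 10.4 (at least 9.36-fold lower).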
